A study of Mus musculus with 8 samples.

Results

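The NRF2 antioxidant and glutathione synthesis genes are 10 mouse genes, Slc7a11, Gclc, Gclm, Gss, Gsr, Txnrd1, Srxn1, Nqo1, Hmox1 and Mafg, chosen by symbol from the 23006 genes of the count table. All 10 were found and all 10 passed the filter on low counts. They were measured by RNA sequencing of liver from mice labelled WT in 8 libraries, 2 in each of 4 groups. Mice of the SLIT2+APAP group received SLIT2, a secreted ligand of ROBO receptors, at 2 μg per mouse into the peritoneum over 3 days, and acetaminophen (APAP) at 400 mg/kg. The APAP group received phosphate-buffered saline and APAP at the same dose, the SLIT2 group received SLIT2 without APAP, and the control group received phosphate-buffered saline. Livers of mice given APAP were taken 24 h after it. Strain, sex, age and the source of SLIT2 are not stated. Nor is it stated that each library came from its own mouse, so the p-values below rest on a spread between samples that may be technical. The APAP libraries carry the numbers 3 and 4, and those of the other groups 1 and 2.

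NRF2, encoded by Nfe2l2, is a transcription factor that is held low by KEAP1 and released when reactive compounds modify KEAP1. It then pairs with a small MAF protein such as MAFG and binds antioxidant response elements in the promoters and enhancers of genes for glutathione synthesis, thioredoxin reduction and detoxification. In the liver an overdose of acetaminophen is turned into a reactive metabolite that consumes glutathione, and these genes take part in rebuilding it.

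Promoter sequences of 7 of the 10 genes were in the RefSeq promoter table (GRCm38.p6), in windows of 300 bases that run from 250 bases before to 50 bases after an annotated start. Gclc, Gsr and Hmox1 had no entry. Windows of 5 genes are shown because they hold at least 1 of 3 motifs searched on both strands: the core of the antioxidant response element (TGACNNNGC), the AP-1 element (TGAGTCA) and a C/EBP-ATF composite element (TGATGNAA), the kind of site that ATF4 binds. Capitals mark the matches, sequences run 5′ to 3′ on the strand of the gene, and a match on the other strand appears as its reverse complement.
Srxn1 (chr2:152105274-152105573, plus strand): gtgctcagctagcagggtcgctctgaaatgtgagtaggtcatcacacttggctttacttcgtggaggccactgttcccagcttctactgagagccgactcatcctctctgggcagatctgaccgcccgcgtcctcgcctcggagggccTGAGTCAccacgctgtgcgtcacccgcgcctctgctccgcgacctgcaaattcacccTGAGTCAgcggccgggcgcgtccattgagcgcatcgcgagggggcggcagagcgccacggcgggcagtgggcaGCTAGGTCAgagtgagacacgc
Slc7a11 (chr3:50443564-50443863, minus strand): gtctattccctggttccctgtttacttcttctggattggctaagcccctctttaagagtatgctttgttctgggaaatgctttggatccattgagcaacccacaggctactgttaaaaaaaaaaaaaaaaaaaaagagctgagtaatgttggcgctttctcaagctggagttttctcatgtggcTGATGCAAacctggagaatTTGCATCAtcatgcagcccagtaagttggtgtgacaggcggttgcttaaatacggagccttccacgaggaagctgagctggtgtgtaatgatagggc
Gclm (chr3:122245307-122245606, plus strand): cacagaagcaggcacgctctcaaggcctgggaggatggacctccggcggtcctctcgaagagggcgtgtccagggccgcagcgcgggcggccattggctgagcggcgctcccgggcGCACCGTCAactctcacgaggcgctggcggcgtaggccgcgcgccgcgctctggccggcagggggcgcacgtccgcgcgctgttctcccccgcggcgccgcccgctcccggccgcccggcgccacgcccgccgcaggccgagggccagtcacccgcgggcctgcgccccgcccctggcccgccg
Txnrd1, the second of its 3 annotated starts (chr10:82858956-82859255, plus strand): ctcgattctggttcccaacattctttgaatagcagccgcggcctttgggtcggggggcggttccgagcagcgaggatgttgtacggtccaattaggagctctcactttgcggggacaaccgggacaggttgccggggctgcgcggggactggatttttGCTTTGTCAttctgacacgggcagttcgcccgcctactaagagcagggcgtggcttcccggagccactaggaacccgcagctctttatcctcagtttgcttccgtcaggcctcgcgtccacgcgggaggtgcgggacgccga
Mafg (chr11:120633498-120633797, minus strand): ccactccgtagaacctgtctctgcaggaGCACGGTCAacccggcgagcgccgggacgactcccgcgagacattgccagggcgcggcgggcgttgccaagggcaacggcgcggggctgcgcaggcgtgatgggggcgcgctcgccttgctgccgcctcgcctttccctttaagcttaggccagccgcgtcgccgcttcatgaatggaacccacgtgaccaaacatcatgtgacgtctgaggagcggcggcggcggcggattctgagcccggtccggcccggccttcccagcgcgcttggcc

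The antioxidant response element core was present once each in Srxn1 (its first base at position 29 after the start), Gclm (position -134), Txnrd1 (position -92) and Mafg (position -222), always on the strand opposite to the gene. It was present in 12.39% of all 32851 promoter windows in the table. Only the letters TGACNNNGC were searched for it, and wider forms of the element were not. The AP-1 element stood at positions -102 and -45 in Srxn1, against 5.2% of windows with at least 1 match. Slc7a11 held the composite element at positions -66 and -47, on opposite strands, against 3.97% of windows. No match overlapped another, and the windows of Gss and Nqo1 and the other 2 windows of Txnrd1 held none of these letters. A match is a description of the letters and not evidence of a bound site.

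Levels are counts-per-million values (CPM) on TMM-scaled library sizes. Library totals lay between 60823534 counts (SLIT2 2) and 100543754 counts (control 2). The SLIT2 libraries stood apart from the other 6. The 13 mitochondrially encoded genes took 60.25% and 69.01% of their counts, against 25.09% and 30.27% in SLIT2+APAP, 14.86% and 13.42% in APAP and 15.99% and 17.26% in control. The summed level of 8 hepatocyte markers was 13400 and 7500 CPM in SLIT2, against 50200 and 70100 CPM in control, and all 8 were detected in every library. The control libraries differed in 5 skeletal muscle markers, which summed to 686 CPM in control 1 and 75.8 CPM in control 2, against at most 1.85 CPM in any other library, and their part in the comparisons with control was not tested. The APAP libraries differed most between themselves, with a median absolute log2 difference per gene of 0.385, against 0.151 in SLIT2+APAP, 0.27 in SLIT2 and 0.141 in control. In whole liver, fewer cells of a type and less RNA per cell cannot be told apart. The smallest two-sided p that exact permutation allows for 1 gene with 2 libraries a group is 0.333, so genes were tested only in the edgeR quasi-likelihood model fitted across 16876 genes, in which a gene was called at an adjusted p under 0.05.

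**Figure D1:**
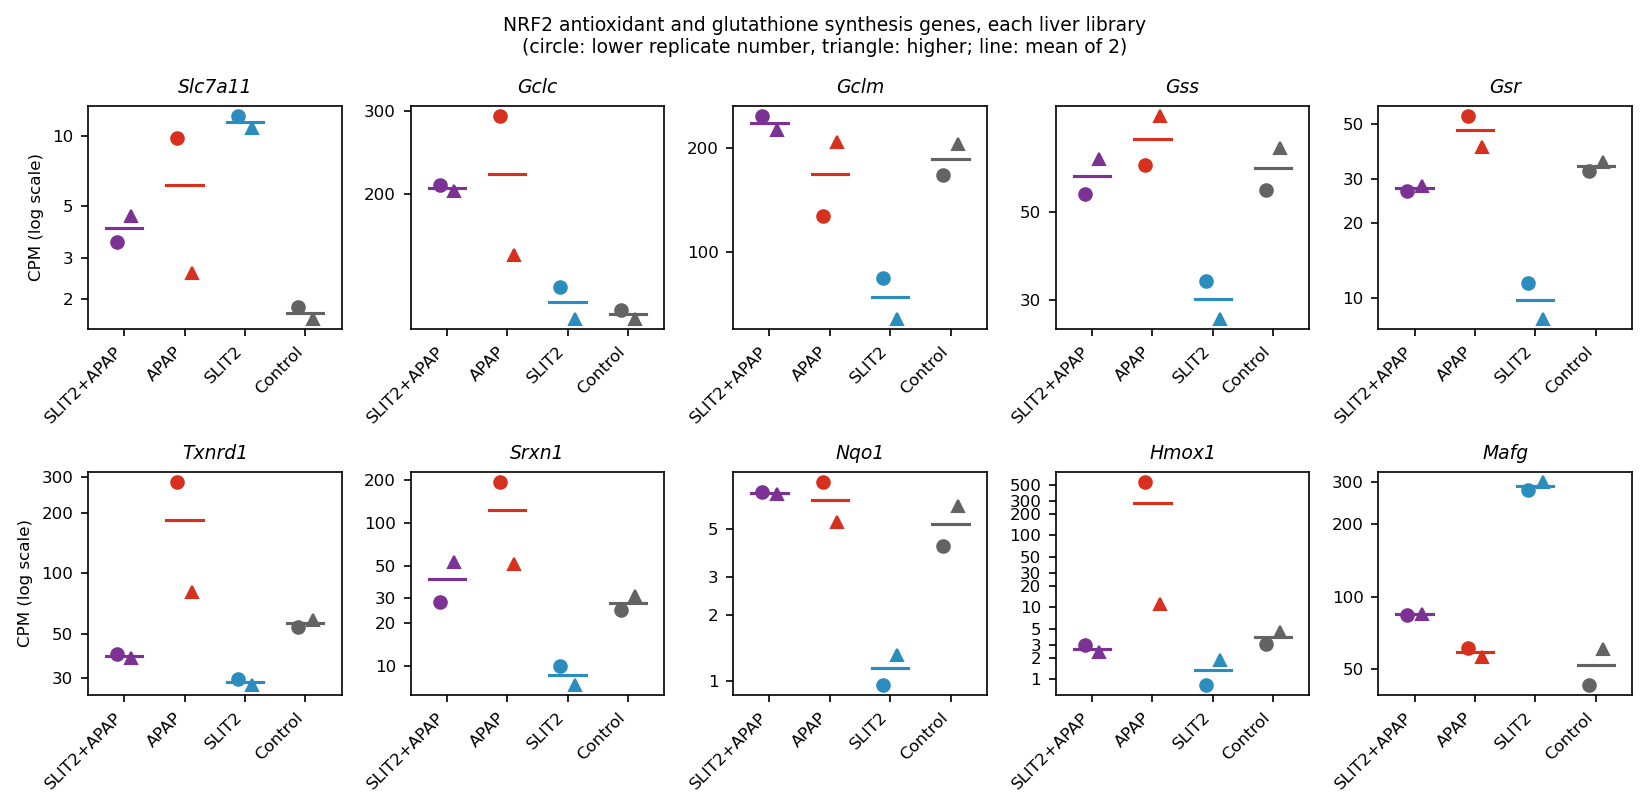
CPM of the 10 genes in each of the 8 liver libraries, on log axes that differ between panels. The circle is the library with the lower number in its group (1, or 3 in APAP), the triangle the one with the higher number (2, or 4 in APAP), and the line is the mean of the 2. APAP 3 stands far above APAP 4 for Hmox1, Txnrd1, Srxn1 and Slc7a11, and the SLIT2 libraries are highest for Mafg and Slc7a11 and lowest for 7 of the other 8 genes.

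Cystine uptake supplies the cysteine that limits glutathione synthesis, and Slc7a11 encodes the cystine-glutamate exchanger of the plasma membrane (ENSMUSG00000027737, chromosome 3 from 49892526 to 50443614 on GRCm38). Slc7a11 was at 3.52 and 4.56 CPM in SLIT2+APAP, 9.78 and 2.58 CPM in APAP, 12.2 and 10.8 CPM in SLIT2 and 1.86 and 1.65 CPM in control. Both libraries of each treated group stood above both control libraries, and APAP 3 was 3.78 times APAP 4. Gclc encodes the catalytic subunit of glutamate-cysteine ligase, the rate-limiting enzyme of glutathione synthesis (ENSMUSG00000032350, chromosome 9 from 77754535 to 77794485). Gclc was at 209 and 203 CPM in SLIT2+APAP, 293 and 149 CPM in APAP, 127 and 109 CPM in SLIT2 and 114 and 109 CPM in control. All 4 libraries with APAP stood above all 4 without it. Gclm encodes the modifier subunit of the same ligase (ENSMUSG00000028124, chromosome 3 from 122245557 to 122270732). Gclm was at 249 and 226 CPM in SLIT2+APAP, 127 and 209 CPM in APAP, 84.0 and 63.7 CPM in SLIT2 and 167 and 206 CPM in control. Gclm was highest in SLIT2+APAP and lowest in SLIT2, and APAP 3 stood below both control libraries.

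Gss encodes glutathione synthetase, which adds glycine in the last step (ENSMUSG00000027610, chromosome 2 from 155563181 to 155592810). Gss was at 55.4 and 68.0 CPM in SLIT2+APAP, 65.7 and 87.4 CPM in APAP, 33.4 and 26.9 CPM in SLIT2 and 56.8 and 72.3 CPM in control. The SLIT2 libraries were lowest, and the other 3 groups overlapped one another. Exons of Gss share 395 bases (6.68% of its annotated exon length) with Acss2 on the opposite strand, and the strand setting of the counting is not given in the sources used here. Gsr encodes glutathione reductase, which returns oxidised glutathione to its reduced form (ENSMUSG00000031584, chromosome 8 from 33652523 to 33698163). Gsr was at 26.9 and 28.1 CPM in SLIT2+APAP, 53.9 and 40.2 CPM in APAP, 11.4 and 8.22 CPM in SLIT2 and 32.4 and 35.1 CPM in control. No 2 groups overlapped for Gsr, and the order from high to low was APAP, control, SLIT2+APAP and SLIT2.

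Txnrd1 encodes cytosolic thioredoxin reductase (ENSMUSG00000020250, chromosome 10 from 82833951 to 82897712). Txnrd1 was at 39.8 and 38 CPM in SLIT2+APAP, 285 and 81.1 CPM in APAP, 29.7 and 27.9 CPM in SLIT2 and 53.8 and 58.8 CPM in control. No 2 groups overlapped, both APAP libraries were highest, and APAP 3 was 3.52 times APAP 4. Srxn1 encodes sulfiredoxin, which repairs overoxidised peroxiredoxins (ENSMUSG00000032802, chromosome 2 from 152105516 to 152111376). Srxn1 was at 28.2 and 53.7 CPM in SLIT2+APAP, 195 and 51.8 CPM in APAP, 10 and 7.42 CPM in SLIT2 and 24.9 and 30.8 CPM in control. APAP 3 stood alone at the top, and APAP 4 and SLIT2+APAP 2 lay within a few CPM of each other. Nqo1 encodes NAD(P)H quinone dehydrogenase (ENSMUSG00000003849, chromosome 8 from 107388225 to 107403206). Nqo1 was at 7.40 and 7.24 CPM in SLIT2+APAP, 8.23 and 5.38 CPM in APAP, 0.958 and 1.32 CPM in SLIT2 and 4.15 and 6.33 CPM in control. The SLIT2 libraries were lowest, and APAP overlapped both SLIT2+APAP and control.

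Hmox1 encodes heme oxygenase 1, the inducible enzyme that breaks down heme (ENSMUSG00000005413, chromosome 8 from 75093621 to 75100589). Hmox1 was at 2.97 and 2.36 CPM in SLIT2+APAP, 557 and 11 CPM in APAP, 0.840 and 1.88 CPM in SLIT2 and 3.05 and 4.58 CPM in control. APAP 3 exceeded APAP 4 by a factor of 50.7, and APAP 4 still stood above every library of the other groups. In raw counts these were 44660 in APAP 3 and 1132 in APAP 4, so counting error is small beside the difference between the libraries. Mafg encodes the small MAF protein that pairs with NRF2 (ENSMUSG00000051510, chromosome 11 from 120625117 to 120633600). Mafg was at 84.2 and 84.8 CPM in SLIT2+APAP, 61.2 and 56.3 CPM in APAP, 279 and 301 CPM in SLIT2 and 43.1 and 60.6 CPM in control. SLIT2 libraries were highest and SLIT2+APAP libraries next, while APAP overlapped control. Mafg shares 124 exon bases (2.21% of its annotated exon length) with Sirt7 on the same strand, whose reads there cannot be told apart.

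Levels of different genes were compared only as CPM per kilobase of annotated exon. On that scale Gclm and Gclc led in control, with means of 29.7 and 29.6 CPM per kilobase, and Slc7a11 was lowest with 0.126. In APAP, Hmox1 led with 162 CPM per kilobase, a mean set by APAP 3, ahead of Gclc with 58.7. In SLIT2+APAP the order was led by Gclc with 54.7 and Gclm with 37.8. In SLIT2, Mafg led with 51.7 CPM per kilobase, against a control mean of 9.24.

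APAP against control shows the state of these genes a day after the toxic dose alone. Fold changes were positive for 9 of the 10 genes, by most for Hmox1, Srxn1, Slc7a11, Txnrd1 and Gclc. Hmox1 averaged 284 ± 386 CPM in APAP and 3.82 ± 1.08 CPM in control (SD, n = 2 each, here and below). Srxn1 averaged 123 ± 101 CPM in APAP and 27.8 ± 4.11 CPM in control, and Txnrd1 183 ± 144 CPM in APAP and 56.3 ± 3.48 CPM in control. Slc7a11 averaged 6.18 ± 5.09 CPM in APAP and 1.75 ± 0.147 CPM in control, and Gclc 221 ± 102 CPM in APAP and 112 ± 3.44 CPM in control. The SD in APAP was large because APAP 3 and APAP 4 differed. For these 5 genes and Gsr both APAP libraries lay above both control libraries, 6 of 10, where 26.9% of all tested genes did. None of the 10 lay wholly below control, where 26.1% of all tested genes did. edgeR called 0 of the 10 genes, where it called 0.332% of tested genes higher and 0.456% lower.

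The edgeR log2 fold changes were 6.22 ± 1.52 for Hmox1 (SE, adjusted p = 0.07794), 2.15 ± 0.58 for Srxn1 (adjusted p = 0.09091), 1.81 ± 0.54 for Slc7a11 (adjusted p = 0.1069), 1.70 ± 0.49 for Txnrd1 (adjusted p = 0.09915) and 0.99 ± 0.31 for Gclc (adjusted p = 0.1182). These 5 had an unadjusted p under 0.05. The remaining log2 fold changes were 0.48 ± 0.24 for Gsr, 0.38 ± 0.33 for Nqo1, 0.25 ± 0.25 for Gss, 0.18 ± 0.22 for Mafg and -0.15 ± 0.29 for Gclm. The median of the 10 was 0.73, and that of all tested genes 0.05. DESeq2 called 4 of the 10 higher (Hmox1, Srxn1, Txnrd1 and Slc7a11), where it called 6.46% of the genes it tested higher. Without APAP 4, with the spread of APAP 3 borrowed from the remaining groups, edgeR called 5 higher, with log2 fold changes of 7.17 for Hmox1, 2.79 for Srxn1, 2.46 for Slc7a11, 2.32 for Txnrd1 and 1.38 for Gclc. That fit called 16.2% of all genes higher. Without APAP 3 edgeR called none of the 10, where it called 2.09% of all genes higher, and the same genes had 1.53, 0.90, 0.56, 0.53 and 0.42.

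**Figure D2:**
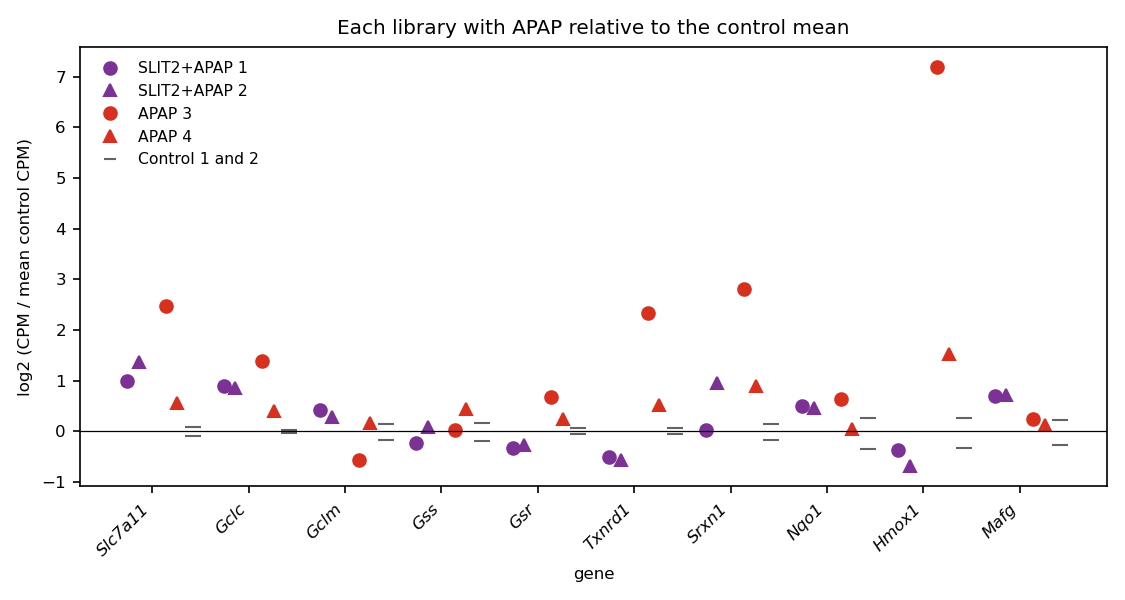
Log2 ratio of the CPM in each library with APAP to the mean control CPM, for each of the 10 genes. Purple symbols are SLIT2+APAP 1 and 2, red symbols APAP 3 (circle) and APAP 4 (triangle), and grey dashes the 2 control libraries. APAP 3 reaches 7.19 for Hmox1 and lies between 1.39 and 2.81 for Slc7a11, Gclc, Txnrd1 and Srxn1, and APAP 4 lies between 0.41 and 1.53 for these 5 genes.

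The difference between the APAP libraries was not shared by all members. Hmox1, Slc7a11, Srxn1 and Txnrd1 were more than 2 times higher in APAP 3 than in APAP 4, 4 of 10 genes, where 19.7% of all tested genes were. Gclc had a ratio of 1.97, Nqo1 1.53, Gsr 1.34 and Mafg 1.09, and Gss and Gclm were lower in APAP 3, with ratios of 0.751 and 0.607. Other markers differed between these libraries too. Summed CPM in APAP 3 and APAP 4 were 617 and 192 for 5 erythroid genes, 20.9 and 7.08 for 7 neutrophil markers, 100 and 37.8 for 6 endothelial markers, and 127 and 105 for 6 Kupffer cell markers. The 9 markers of monocytes and recruited macrophages went the other way, at 77.7 in APAP 3 and 86.0 in APAP 4. The part of these cells in the difference for Hmox1, which macrophages also express, was not tested.

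SLIT2+APAP against APAP asks how the genes stood in mice that received SLIT2 as well as the toxic dose. Hmox1 and Txnrd1 fell. Hmox1 fell to 2.66 ± 0.426 CPM in SLIT2+APAP, against 284 ± 386 CPM in APAP, a log2 fold change of -6.74 ± 1.56 (SE, edgeR adjusted p = 0.02978). Txnrd1 fell to 38.9 ± 1.27 CPM in SLIT2+APAP, against 183 ± 144 CPM in APAP (-2.24 ± 0.50, edgeR adjusted p = 0.02661). The other 8 did not pass, so 2 of 10 were called lower and 0 higher, where edgeR called 7.64% of tested genes lower and 6.29% higher.

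Hmox1, Txnrd1 and Gsr lay wholly below APAP, 3 of 10, where 29.4% of tested genes did. Gclm and Mafg lay wholly above it, 2 of 10, where 28.8% of tested genes did. Gsr averaged 27.5 ± 0.794 CPM in SLIT2+APAP and 47.1 ± 9.71 CPM in APAP, a log2 fold change of -0.78 ± 0.24 (edgeR adjusted p = 0.06561). Srxn1 averaged 41.0 ± 18.1 CPM in SLIT2+APAP and 123 ± 101 CPM in APAP (-1.59 ± 0.57, edgeR adjusted p = 0.09898). Gclm averaged 238 ± 16.1 CPM in SLIT2+APAP and 168 ± 58.0 CPM in APAP (0.50 ± 0.29), and Mafg averaged 84.5 ± 0.437 CPM in SLIT2+APAP and 58.8 ± 3.50 CPM in APAP (0.52 ± 0.23). Srxn1 and the remaining 4 overlapped between the groups, and those 4 had log2 fold changes of -0.61 ± 0.52 for Slc7a11, -0.31 ± 0.25 for Gss, -0.10 ± 0.31 for Gclc and 0.11 ± 0.32 for Nqo1. The median of the 10 was -0.46, and that of all tested genes -0.06.

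The size of the Hmox1 and Txnrd1 falls rests on APAP 3. Without it the log2 fold changes were -2.05 for Hmox1 and -1.07 for Txnrd1, and without APAP 4 they were -7.69 and -2.86. Each of these fits leaves 1 APAP library and takes its spread from the other groups, which differed less between themselves. Calls in these fits therefore leave out the difference between APAP 3 and APAP 4 and cannot show whether the falls hold. Of all genes, 10.2% were called lower without APAP 3 and 18.7% without APAP 4. The calls of Hmox1 and Txnrd1 made with all 8 libraries were lost on leaving out any 1 of the 6 libraries of the other groups. The log2 fold changes stayed between -6.89 and -6.56 for Hmox1 and between -2.26 and -2.17 for Txnrd1. Their edgeR adjusted p was then between 0.0548 and 0.2212, the highest without SLIT2+APAP 2. Without both SLIT2 libraries, which stand apart, the edgeR adjusted p was 0.05982 for Hmox1 and 0.05625 for Txnrd1. Fitted to only the 4 libraries compared, which keeps both APAP libraries, neither was called (edgeR adjusted p = 0.1307 for Hmox1 and 0.1287 for Txnrd1). Summed neutrophil markers were 3.38 and 4.82 CPM in SLIT2+APAP, against 20.9 and 7.08 CPM in APAP, and Kupffer cell markers 92.2 and 80.8 CPM in SLIT2+APAP, against 127 and 105 CPM in APAP. Markers of monocytes and recruited macrophages were at 54.3 and 59.2 CPM in SLIT2+APAP, against 77.7 and 86.0 CPM in APAP. The 5 cholangiocyte markers were at 23.0 and 29.9 CPM in SLIT2+APAP, against 66.4 and 56.9 CPM in APAP, and the hepatocyte markers at 64000 and 62800 CPM in SLIT2+APAP, against 101000 and 78600 CPM in APAP. Spp1 belongs to both the cholangiocyte and the macrophage markers. Other sums overlapped between SLIT2+APAP and APAP. These were endothelial (55.0 and 64.1 CPM against 100 and 37.8 CPM), stellate (145 and 159 CPM against 178 and 104 CPM) and erythroid markers (284 and 174 CPM against 617 and 192 CPM). Of the neutrophil markers, 5 of 7 had counts in each SLIT2+APAP library, with Ly6g and Ngp at 0. The number with counts was also 5 in both SLIT2 libraries and control 2, 6 in control 1 and 7 in both APAP libraries. The part of these cell types in these falls was not tested.

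SLIT2+APAP against control shares the SLIT2+APAP libraries with the comparison above and the control libraries with the others. edgeR called 0 of the 10 genes, where it called 0.717% of tested genes higher and 1.45% lower. Gclc and Mafg had an unadjusted p under 0.05, and DESeq2 called 0. In SLIT2+APAP, Slc7a11, Gclc, Gclm, Nqo1 and Mafg lay wholly above control, 5 of 10, where 35.2% of tested genes did. Gsr, Txnrd1 and Hmox1 lay wholly below control, 3 of 10, where 32.3% of tested genes did.

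Gclc averaged 206 ± 4.02 CPM in SLIT2+APAP and 112 ± 3.44 CPM in control (log2 fold change 0.88 ± 0.31, edgeR adjusted p = 0.1675). Slc7a11 averaged 4.04 ± 0.740 CPM in SLIT2+APAP and 1.75 ± 0.147 CPM in control (1.20 ± 0.54, edgeR adjusted p = 0.2603). Mafg had 0.70 ± 0.23 (edgeR adjusted p = 0.1335), Srxn1 0.56 ± 0.56, Nqo1 0.48 ± 0.33 and Gclm 0.35 ± 0.29. Txnrd1 had -0.53 ± 0.48, Hmox1 -0.52 ± 1.25, Gsr -0.30 ± 0.24 and Gss -0.06 ± 0.25. These differences were set against a spread that the APAP and SLIT2 libraries help to estimate. Fitted to the 4 libraries of this comparison alone, edgeR called Gclc, Slc7a11 and Mafg higher and Txnrd1 lower (adjusted p between 0.004913 and 0.02237), where that fit called 12.7% of all genes higher and 14.7% lower. With APAP 3 or APAP 4 left out of the fit to all groups it called Gclc and Slc7a11 higher (adjusted p between 0.01196 and 0.02207), where these fits called 6.74% and 6.45% of all genes higher. Gclc and Slc7a11 were above both control libraries in all 4 libraries with APAP. Hmox1, Txnrd1 and Gsr were above control in both APAP libraries and below it in both SLIT2+APAP libraries. For Hmox1 the nearest libraries were close, at 2.97 CPM in SLIT2+APAP 1 and 3.05 CPM in control 1. The share of all tested genes with either joint pattern was not counted.

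**Figure D3:**
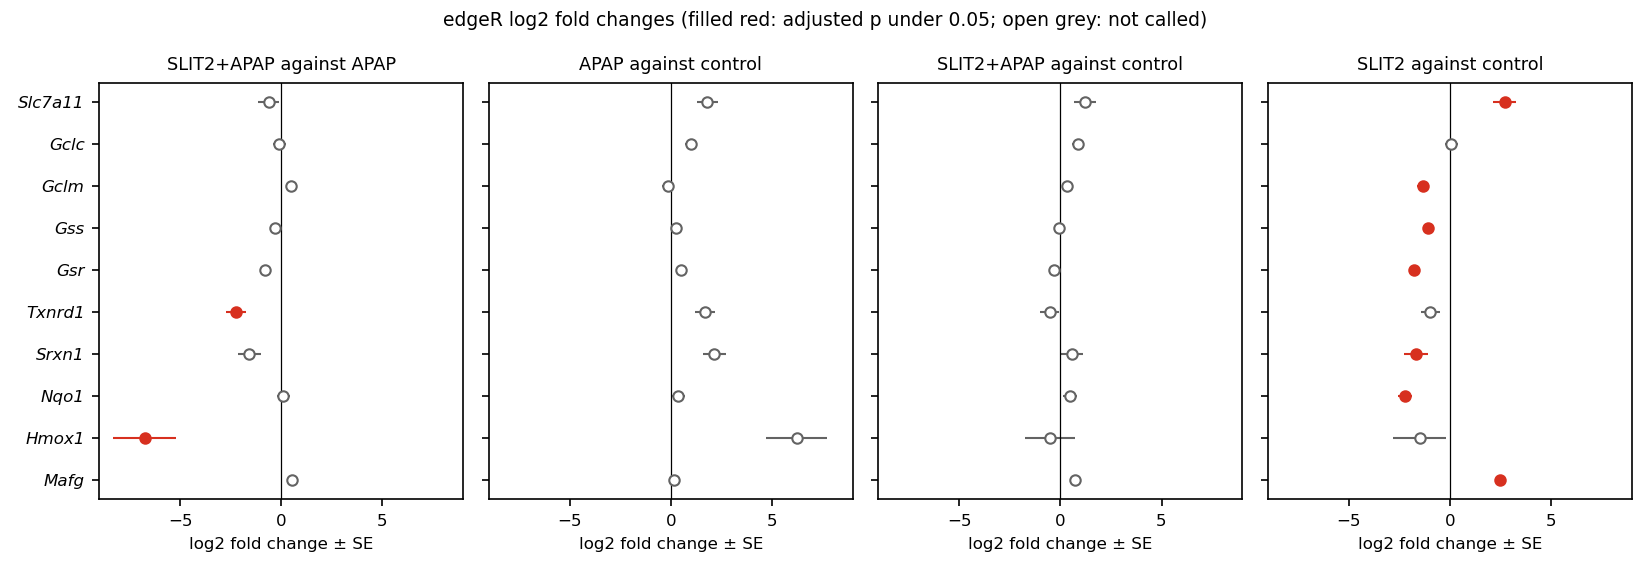
edgeR log2 fold changes of the 10 genes with their standard errors in 4 comparisons. Filled red points passed an adjusted p under 0.05 and open grey points did not. In SLIT2+APAP against APAP the red points are Txnrd1 (-2.24) and Hmox1 (-6.74), and in SLIT2 against control 7 genes are red, of which Slc7a11 (2.71) and Mafg (2.48) are higher.

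SLIT2 against control sets the libraries that stand apart against control. Mafg and Slc7a11 rose. Mafg averaged 290 ± 15.8 CPM in SLIT2 and 51.8 ± 12.3 CPM in control (log2 fold change 2.48 ± 0.24, edgeR adjusted p = 0.0001553), and Slc7a11 averaged 11.5 ± 1.01 CPM in SLIT2 and 1.75 ± 0.147 CPM in control (2.71 ± 0.56, edgeR adjusted p = 0.004383). Nqo1, Gsr, Srxn1, Gclm and Gss fell. Nqo1 fell to 1.14 ± 0.257 CPM in SLIT2, against 5.24 ± 1.54 CPM in control (-2.20 ± 0.35, edgeR adjusted p = 0.001329), and Gsr fell to 9.82 ± 2.26 CPM in SLIT2, against 33.8 ± 1.92 CPM in control (-1.78 ± 0.25, edgeR adjusted p = 0.0006515).

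Srxn1 had a log2 fold change of -1.67 ± 0.58 (edgeR adjusted p = 0.03885), Gclm -1.34 ± 0.30 (0.005969) and Gss -1.10 ± 0.25 (0.006852). Txnrd1 (-0.97 ± 0.48), Hmox1 (-1.50 ± 1.31) and Gclc (0.08 ± 0.31) did not pass. Txnrd1 and Hmox1 were also called lower, so that 7 of the 10 were, in fits to the 4 libraries compared (edgeR adjusted p = 0.003052 for Txnrd1 and 0.02553 for Hmox1), without APAP 3 or without APAP 4 (between 0.0005737 and 0.008212). These 3 fits called 32.0%, 32.6% and 32.2% of all genes lower. The 2 of 10 called higher and 5 of 10 called lower stand beside 27.3% and 27.6% of all tested genes. The 2 genes wholly above control and the 7 wholly below it stand beside 41.2% and 41.4%. The median of the 10 was -1.22, and that of all tested genes 0.00, which became 0.35 with offsets for GC content. With those offsets Srxn1 was not called (-1.30 ± 0.59, edgeR adjusted p = 0.0936). The calls of Mafg, Slc7a11, Gsr and Nqo1 held in each fit that left out 1 library. That of Srxn1 was lost without control 1, control 2, SLIT2 1 or SLIT2 2 (log2 fold changes between -1.93 and -1.45), and those of Gclm and Gss without control 2 or SLIT2 2 (between -1.13 and -0.87). Leaving the mitochondrially encoded genes out of the fit kept all 7 calls. The lower hepatocyte markers and the mitochondrial share of the SLIT2 libraries go with these differences, and their part was not tested.

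The effect of SLIT2 with APAP was called different from its effect without APAP for 4 of the 10 genes, near the share of all tested genes. edgeR called the interaction, the SLIT2+APAP minus APAP difference less the SLIT2 minus control difference, as positive for Nqo1 (2.31 ± 0.48 on the log2 scale, adjusted p = 0.01291) and Gclm (1.84 ± 0.41, adjusted p = 0.01701). It was negative for Slc7a11 (-3.32 ± 0.76, adjusted p = 0.018) and Mafg (-1.96 ± 0.32, adjusted p = 0.006598). These were 2 of 10 in each direction, where 15.5% of all tested genes had a positive and 13.3% a negative call. All 4 rest on the SLIT2 libraries, in which 60.25% and 69.01% of the counts were mitochondrially encoded. Mafg was the only member whose interaction kept its call in all 8 fits that left out 1 library.

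The rest of the pathway was followed in 5 lists with 63 genes, of which 62 were tested. In APAP against control, Gsta1, a glutathione transferase, rose and 61 did not pass, where 0.332% of all tested genes rose and 0.456% fell. Against APAP, SLIT2+APAP had 11 of 62 that fell and none that rose, where 7.64% of all tested genes fell and 6.29% rose. The median log2 fold change of the 62 was -0.62, and that of all tested genes was -0.06. With only the 4 libraries compared edgeR called 1 of all genes, so at most 1 of the 11 calls holds there. The lists were chosen with earlier results of these data known. Gsta1 rose and Gpx1, Cth and Gnmt fell in SLIT2+APAP against control, where 0.717% of all tested genes rose and 1.45% fell. Without the SLIT2 libraries edgeR called 0 of all genes in APAP against control and 3 in SLIT2+APAP against control. The calls against control therefore lean on the spread that the SLIT2 libraries help to estimate. In SLIT2 against control 39 of 62 fell and Aox1 rose, where 27.6% of all tested genes fell and 27.3% rose, with a median of -1.47, and that of all tested genes was 0.00.

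Among 9 NRF2 regulators and partners, none passed in APAP against control (median 0.59). Maff, another small MAF gene, was at 0.939 and 1.89 CPM in SLIT2+APAP, 118 and 6.92 CPM in APAP and 1.70 and 1.92 CPM in control. It stood far higher in APAP 3 than in any other library and fell in SLIT2+APAP against APAP (log2 fold change -5.46 ± 1.17, edgeR adjusted p = 0.02375). Mafk, the third small MAF gene, was at 9.06 and 8.95 CPM in SLIT2+APAP, 90.8 and 11.3 CPM in APAP and 6.50 and 8.15 CPM in control, and did not pass (-2.50 ± 0.77, edgeR adjusted p = 0.06513). Mafg, at 61.2 and 56.3 CPM in APAP, did not share the high level of APAP 3. Cul3, the scaffold of the ubiquitin ligase that KEAP1 brings to NRF2, fell in SLIT2+APAP against APAP (-1.12 ± 0.30, edgeR adjusted p = 0.04775). Maff and Cul3 were 2 of 9, where 7.64% of all tested genes fell. In SLIT2 against control Cul3, Rbx1 and Sqstm1 fell, 3 of 9, where 27.6% of all tested genes fell. Nfe2l2 itself was at 33.1 and 29.7 CPM in SLIT2+APAP, 70.7 and 26.3 CPM in APAP, 44.5 and 67.8 CPM in SLIT2 and 34.4 and 30.1 CPM in control, and was not called in any comparison. Its values are given because the transcription factor gives the group its name.

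Of 19 peroxide and thioredoxin enzymes, Gpx1, the main cytosolic glutathione peroxidase, fell to 346 and 270 CPM in SLIT2+APAP, against 1400 and 1470 CPM in APAP (-2.22 ± 0.41, edgeR adjusted p = 0.01576), and 18 did not pass. Txnip, which binds thioredoxin, was at 11.5 and 12.6 CPM in SLIT2+APAP and 164 and 16.8 CPM in APAP (-2.90 ± 0.85, edgeR adjusted p = 0.05753). Sesn2, a stress-induced sestrin, was at 4.83 and 5.09 CPM in SLIT2+APAP and 33.7 and 6.38 CPM in APAP (-2.01 ± 0.63, edgeR adjusted p = 0.07028). Both stood far higher in APAP 3 than in any other library. In SLIT2 against control 14 of the 19 fell and none rose, where 27.6% of all tested genes fell, with a median of -2.30. A positive interaction was called for the same 14 of the 19, where it was for 15.5% of all tested genes. The interaction subtracts the SLIT2 minus control difference, so it is not a separate observation, and both rest on the SLIT2 libraries. In NADPH supply, which feeds both reductases, none of 6 genes passed in SLIT2+APAP against APAP or in APAP against control (medians of -0.45 in SLIT2+APAP against APAP and 0.29 in APAP against control). Pgd was at 18.5 and 21.4 CPM in SLIT2+APAP, 51.1 and 23.3 CPM in APAP and 12.8 and 16.4 CPM in control. Taldo1 had -0.61 ± 0.20 in SLIT2+APAP against APAP and Idh1 0.62 ± 0.28. In SLIT2 against control G6pdx, Tkt, Taldo1 and Idh1 fell, 4 of 6, where 27.6% of all tested genes fell.

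Of 11 tested genes for glutathione precursors and breakdown, Slc3a2, Gnmt and Oplah fell in SLIT2+APAP against APAP, where 7.64% of all tested genes fell. Slc3a2 encodes the heavy chain that carries the Slc7a11 exchanger. It fell to 15.3 and 19.2 CPM in SLIT2+APAP, against 95.0 and 36.0 CPM in APAP (-1.92 ± 0.41, edgeR adjusted p = 0.0239), while control stood at 17.4 and 19.9 CPM. Gnmt, the glycine methyltransferase that regulates S-adenosylmethionine, fell to 116 and 76.2 CPM in SLIT2+APAP, against 985 and 622 CPM in APAP (-3.06 ± 0.37, edgeR adjusted p = 0.005967). Cth, which makes cysteine from cystathionine, was at 140 and 93.1 CPM in SLIT2+APAP, 133 and 136 CPM in APAP and 280 and 348 CPM in control. It fell in SLIT2+APAP against control (-1.43 ± 0.27, edgeR adjusted p = 0.04291) and was not called in APAP against control (-1.22 ± 0.27, edgeR adjusted p = 0.06671). Ggt1 did not pass the filter on low counts.

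Among 17 other NRF2-linked detoxification genes, Ephx1, Abcc2, Abcc3, Gstp1 and Osgin1 fell in SLIT2+APAP against APAP (median of the list -0.81). Of all tested genes, 7.64% fell in that comparison. Ephx1, the microsomal epoxide hydrolase, fell to 118 and 110 CPM in SLIT2+APAP, against 335 and 441 CPM in APAP (-1.77 ± 0.23, edgeR adjusted p = 0.006407). Abcc3, a basolateral exporter of conjugates, fell to 5.73 and 3.46 CPM in SLIT2+APAP, against 25.1 and 46.0 CPM in APAP (-2.95 ± 0.38, edgeR adjusted p = 0.006465). In these 2 genes APAP 4 was the higher APAP library, unlike in Hmox1. Gsta1 was at 72.7 and 123 CPM in SLIT2+APAP, 155 and 54.9 CPM in APAP, 6.0 and 1.38 CPM in SLIT2 and 0.810 and 1.38 CPM in control. It rose in APAP against control (6.58 ± 0.88, edgeR adjusted p = 0.03274) and in SLIT2+APAP against control (6.48 ± 0.87, edgeR adjusted p = 0.02532). These 2 comparisons share the control libraries. The call in APAP against control was lost without the SLIT2 libraries, a fit in which edgeR called 0 of all genes there. Its level in SLIT2+APAP against APAP did not pass (-0.10 ± 0.68, edgeR adjusted p = 0.934). Gsta1 has close paralogs, so its counts are uncertain.

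**Figure D4:**
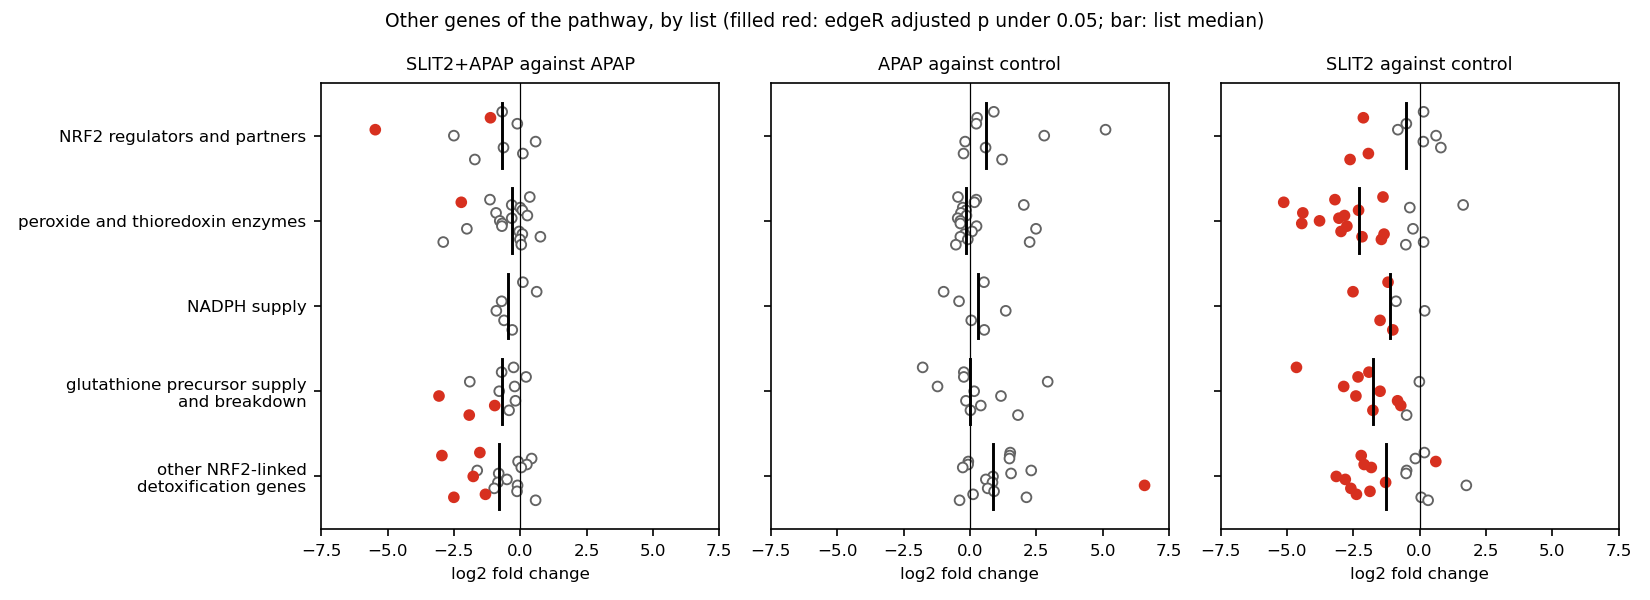
edgeR log2 fold changes of 62 other genes of the pathway in 5 lists, for 3 comparisons. Each point is a gene, filled red where the adjusted p was under 0.05, and the black bar is the median of the list. In SLIT2+APAP against APAP 11 genes are red and all lie below 0, and in SLIT2 against control 39 red genes lie below 0 and 1 above.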

How the data were processed

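Total RNA of mouse liver was made into 8 directional libraries with the MGIEasy kit, per the labels' protocols. The authors deposited raw gene counts as whole numbers for 23006 Ensembl identifiers, with no column left unmatched. Tools listed in the submitters' processing notes, with no roles, are Cufflinks, Cuffdiff 2.2.1 and STAR 2.5.4, and the build listed is mm10. How reads were counted, with which annotation and with which strand setting is not given in the sources used here. The digit 0 ends 72 of the 93 largest counts. GENCODE M21 on GRCm38, the assembly that mm10 names, gave symbols, positions and exon lengths for 22329 identifiers (97.1%).

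Totals were 60823534 to 100543754 counts per library, and no molecular identifiers are named, so reads are not counts of molecules. The R 4.3.3 package edgeR 4.0.16 was used with its filterByExpr step, which left 16876 genes, and TMM scaling. The robust quasi-likelihood model (legacy = FALSE) had a mean for each group, all 8 libraries and 4 residual degrees of freedom. The 5 comparisons were adjusted by Benjamini-Hochberg over all genes tested, at a threshold of 0.05. The standard error is the log2 fold change divided by the square root of F. CPM use TMM-scaled library sizes. Alternatives were DESeq2 1.42.0, other scalings, filters and library sets, GC offsets, a replicate block and leaving out each library. A group left with 1 library took its spread from the other groups. The fits and the motif search were tested on simulated data. The simulated counts had the same dispersion in every group, whereas the groups here differ in spread. That simulation therefore cannot show how reliable the calls are in these libraries. All 10 members are named, and up to 3 genes of each other list, those with the smallest p in APAP against control or SLIT2+APAP against APAP. Genes that make up small counts are also named, and Nfe2l2 was added after its values were seen. Members and lists were chosen with earlier results of these data known. Figures were drawn with matplotlib 3.10.9.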

Additional observations from a re-analysis of the deposited data

Results flagged for a closer look

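The effect of SLIT2 differed between mice with and without APAP for 4 of the 10 genes, by the interaction term of the edgeR model, 2 upward and 2 downward, which is near the shares of all tested genes (15.5% and 13.3%). For Nqo1 the interaction was 2.31 on the log2 scale, from a SLIT2 effect of 0.11 with APAP and -2.20 without it. For Gclm it was 1.84, from 0.50 with APAP and -1.34 without it. For Slc7a11 it was -3.32, from -0.61 with APAP and 2.71 without it, and for Mafg it was -1.96, from 0.52 with APAP and 2.48 without it. All 4 rest on the SLIT2 libraries, in which 60.25% and 69.01% of the counts were mitochondrially encoded. The call of Slc7a11 was lost in 6 of the 8 fits that left out 1 library, that of Gclm in 5 and that of Nqo1 in 2 (edgeR adjusted p up to 0.09345, 0.0787 and 0.06289).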

How the results depend on the processing

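Limits come from 2 libraries per group, from APAP 3 and APAP 4 standing far apart and from the SLIT2 libraries entering the shared spread. Depth did not limit the members, whose lowest count was 57, for Hmox1 in SLIT2 1. Counts are members of 10 or genes of all tested, by edgeR unless DESeq2 is named. In APAP against control, 133 genes were called. This became 236 with library totals only, 205 with no filter, 1836 by DESeq2, 54 by the legacy fit, 64 with GC offsets and 0 without the SLIT2 libraries or with only the 4 libraries compared (3908 and 2654 at an unadjusted p under 0.05). DESeq2 called 4 members higher there. SLIT2+APAP against APAP had 2351 genes called, 3532 by DESeq2 and 1 with only the 4 libraries. Members called lower were 4 by DESeq2, 1 with no filter and 0 without the SLIT2 libraries or with only the 4, and GC offsets called 1 higher (Mafg). SLIT2+APAP against control had 365 genes called, 1455 by DESeq2, 3 without the SLIT2 libraries and 4246 with only the 4 libraries, where 3 members were called higher and 1 lower. In SLIT2 against control, 9266 genes were called. Of those with at least 10 CPM in 2 libraries 4645 were called, with 1 member higher and 2 lower, and in the interaction that filter left 1 member higher. Fewer genes and members were tested there. With that filter Gss (-0.56 ± 0.23, edgeR adjusted p = 0.06432) and Srxn1 (-1.14 ± 0.60, edgeR adjusted p = 0.1365) were tested but not called in SLIT2 against control. Their log2 fold changes had been -1.10 and -1.67 with the filterByExpr step, so the values moved too and not only the number of genes tested.

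Replicate numbers are shared by 3 groups, and deviations of same-numbered libraries correlated at 0.08, -0.05 and 0.06, so the numbers were not taken to pair the samples. With a replicate block and only the 4 libraries, SLIT2+APAP against control gave 3556 genes, 3 members higher and 1 lower, and SLIT2 against control gave 10516 genes, 2 members higher and 7 lower. APAP shares no number with another group, so it had no block.

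Leaving out 1 library at a time gave 0 to 5181 genes and 0 to 5 members higher in APAP against control. It gave 21 to 6133 genes, 0 to 1 members higher and 0 to 5 lower in SLIT2+APAP against APAP, and 2 to 2558 genes and 0 to 2 members higher in SLIT2+APAP against control. It gave 2 to 7 members lower in SLIT2 against control, and 1002 to 8303 genes, 0 to 4 members higher and 1 to 4 lower in the interaction. The 7 lower in SLIT2 against control came without APAP 3 or without APAP 4. Many other genes were called lower in those fits too, at the shares given above for that comparison, so the 7 are not particular to the members.

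Signs turned only for values that the edgeR fit described above did not call. In APAP against control, GC offsets gave Gclm 0.08 and Mafg -0.09, and leaving out a library gave Gclm -0.57 to 0.17 and Mafg -0.05 to 0.45. In SLIT2+APAP against APAP, library totals gave Gclc 0.11, and leaving out a library gave Slc7a11 -1.26 to 0.64, Gclc -0.50 to 0.46 and Nqo1 -0.15 to 0.44. Slc7a11 was at -1.26 without APAP 4 and at 0.64 without APAP 3, so its sign depended on which APAP library was kept. In SLIT2+APAP against control, library totals gave Gss 0.24 and Gsr 0.01, the filter of 10 CPM gave Gss 0.01, leaving out the SLIT2 libraries gave Gss 0.00, and leaving out a library gave Gss -0.23 to 0.17. In SLIT2 against control Gclc ranged over -0.06 to 0.22. In the interaction, Srxn1 was -0.40 with the filter and -0.01 with GC offsets, and leaving out a library gave Srxn1 -0.52 to 1.37 and Gclc -0.54 to 0.42. Library totals moved the median of all genes by 0.11, 0.18, 0.30 and 0.11 in the 4 comparisons, in the order above. The cause was not tested.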
